A study of Mus musculus with 8 samples.

Results

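Perineuronal nets are lattices of extracellular matrix that coat the cell body and proximal dendrites of certain neurons, most prominently fast-spiking neurons that contain parvalbumin. A backbone of hyaluronan, extruded by hyaluronan synthases, binds chondroitin sulfate proteoglycans of the lectican family. Link proteins hold each lectican on the hyaluronan chain, and tenascins crosslink the lecticans at their other end. Nets assemble during postnatal life and are known for limiting synaptic plasticity in adult circuits. The genes described here were 10 that encode these components: the link proteins Hapln1 and Hapln4, the lecticans Acan, Bcan, Ncan and Vcan, the tenascins Tnr and Tnc, and the hyaluronan synthases Has2 and Has3. They were found by gene name on the array, without use of their levels, and held 14 of its 55681 probes other than controls.

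Arrays were run on tissue punched from the nucleus accumbens (NAc), a part of the ventral striatum that belongs to the reward system, of 4 male C3H/HeN mice exposed to maternal separation (MS) and 4 male C3H/HeN control mice, with 1 array per mouse. MS pups were separated daily over postnatal days 2 to 14 while their dams underwent unpredictable stress, and control pups stayed with their dams; both groups were weaned on postnatal day 21. All were adult males tested in operant cages for a palatable reward from 4 to 5 months of age, and were fasted before they were killed. The labels do not say which mice shared a litter, so p-values measure the spread between these mice, some of which may be littermates. Most mice of a group share the leading number of their label, and no leading number occurs in both groups. What that number encodes is not given.

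A level is given as log2 of the background-subtracted signal minus log2 of the 75th percentile of the same array, so that 0 is that percentile and 1 unit is a doubling. Probes that were well above background on 4 or more of the 8 arrays were tested, and differences are MS minus control with limma's standard error (SE) and an adjusted p over all 33111 probes tested. Levels of different probes are not comparable, since each binds with its own strength. The scaling signal, that percentile, averaged 368 ± 33.0 in MS arrays and 355 ± 60.7 in control arrays (SD, n = 4 each). The share of probes well above background ran over 57.7 to 61.2% in MS and 57.3 to 69.7% in control arrays, control replicate 4 being the highest. Over all probes, 1 passed the adjusted threshold of 0.05. Markers of medium spiny neurons, the principal cells of this region, were present: all 10 of those listed passed the level for testing.

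Of the 14 probes, 10 were tested, covering 7 genes, and 9 were well above background on every array. None of the 10 passed the adjusted threshold, against 0.00302% of all probes tested. At an unadjusted p under 0.05, 2 were lower in MS mice (background 7.64%) and 1 was higher (background 6.47%). Taking 1 probe per gene, 4 genes had a negative and 3 a positive difference, with a median of -0.07, against a median of 0.0035 over all probes. Signs were thus mixed across the net genes. Hapln4 stood out among them with a difference of -1.45, while the other 6 genes lay between -0.42 and 0.18.

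**Figure D1:**
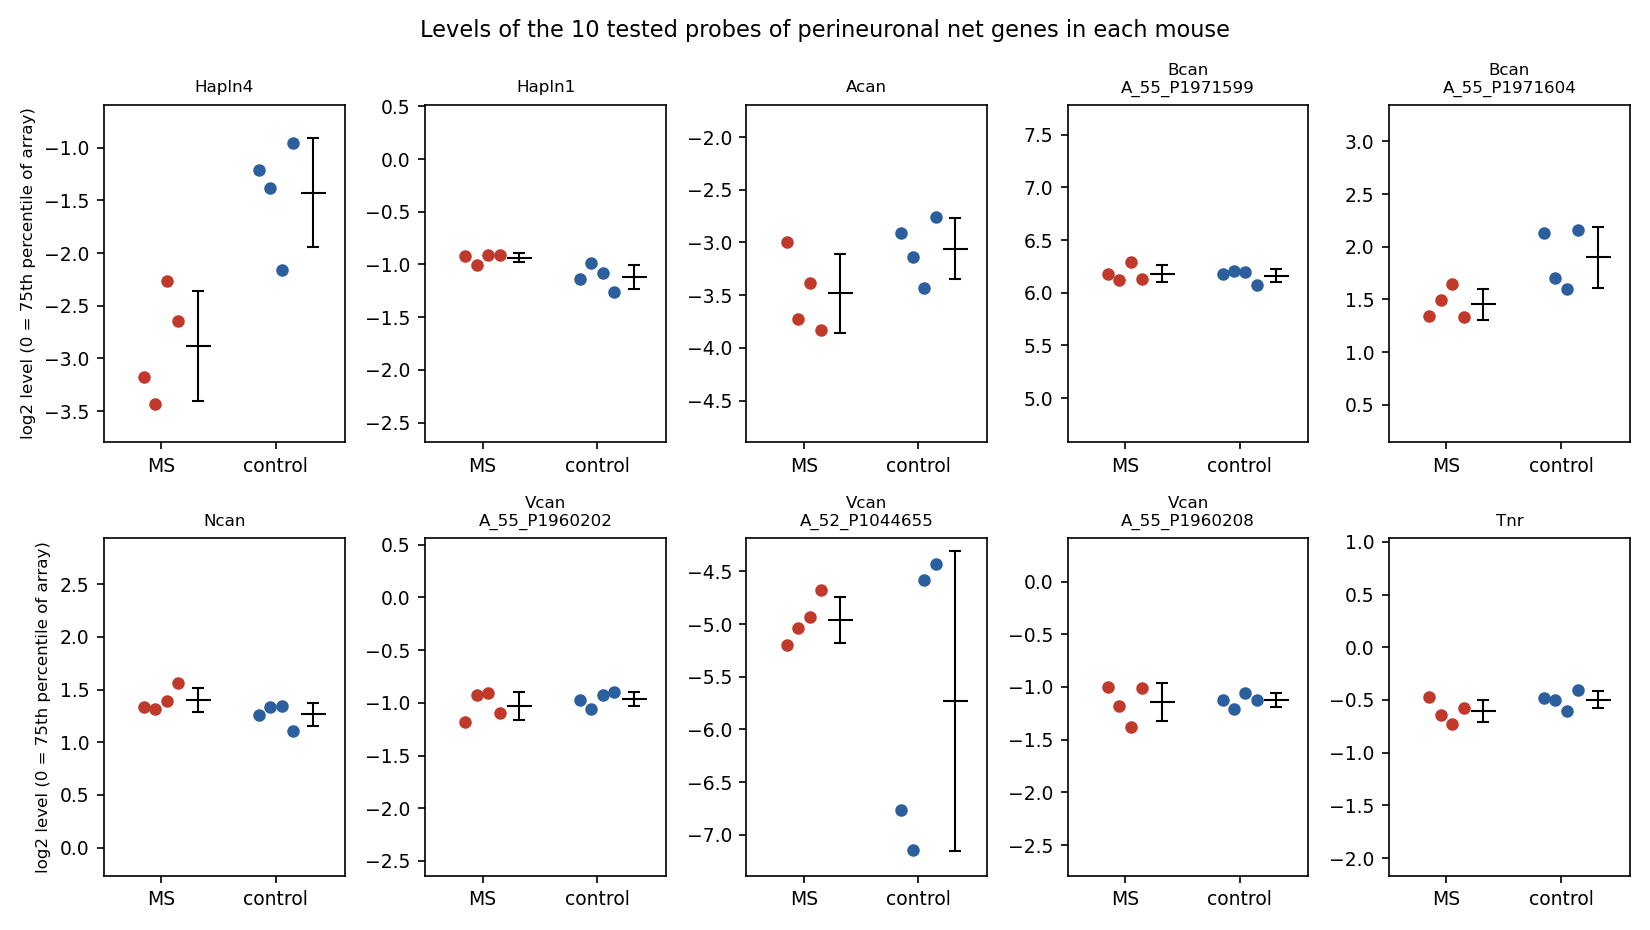
Log2 level of each tested probe (y axis, 0 is the 75th percentile of the array) in 4 MS mice (left, red) and 4 control mice (right, blue), with group means and SD in black and the same span of log2 units in each panel. Hapln4 is the only panel in which every MS mouse lies below every control mouse, by a narrow margin between -2.27 in MS replicate 3 and -2.16 in control replicate 3.

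Hapln4, also called brain link protein 2, stabilises lecticans on hyaluronan around the synaptic endings of several brainstem and cerebellar neurons. It was read by 1 probe, A_51_P490924, on the forward strand at chr8:72613883-72613942 (build mm9). The last 30 of its 60 bases are shown because the largest difference in the gene set rests on this probe alone.
Hapln4: gctaactttactccacccagcagctgagca
Levels were -3.18, -3.43, -2.27 and -2.64 in the MS mice, against -1.21, -1.38, -2.16 and -0.96 in the control mice. MS replicates 1 and 2 were lowest, control replicate 4 was highest, and the groups did not overlap. No other net gene probe was without overlap in either direction. Among all probes tested, 8.69% were without overlap, 4.8% lower and 3.9% higher in MS mice, and 1 of 10 is close to that share.

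The Hapln4 mean was -2.88 ± 0.52 in MS mice and -1.43 ± 0.52 in control mice (SD, n = 4 each), a difference of -1.45 (SE 0.31, 95% interval -2.17 to -0.74), which is a 2.74-fold lower level in MS mice. The limma unadjusted p was 0.00141, ranking 395 of 33111 probes, and the adjusted p of 0.118 did not pass. Since the punches hold many cell types, fewer cells of a type and less RNA per cell cannot be told apart here. Only 0.166% of probes tested had a difference of this size or more in either direction. The signal itself was low, at 35.3, 36.5, 78.4 and 60.8 scanner units in MS mice, against 163.7, 121.5, 66.3 and 221.2 in control mice. Before scaling, MS replicate 3 thus lay above control replicate 3, and the lack of overlap depends on dividing by each array's percentile. The difference was -2.01 in the first row of the slide and -0.90 in the second, and it was negative in all 4 columns, from -2.48 to -1.02.

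The Hapln4 call depended on which values were tested. With normexp correction, which fits the background with a convolution model and adds an offset of 50, the difference was -0.84 (limma adjusted p = 0.00906), and in the log2 table deposited by the authors it was -0.95 (limma adjusted p = 0.0378). Both are smaller differences that passed the threshold, in fits that called 1.48% and 1.2% of all probes. The adjusted p over all alternatives ran from 0.00906 to 0.326. Hapln4 is among the genes that the study lists as changed in these same mice, so its direction here is not independent evidence.

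**Figure D2:**
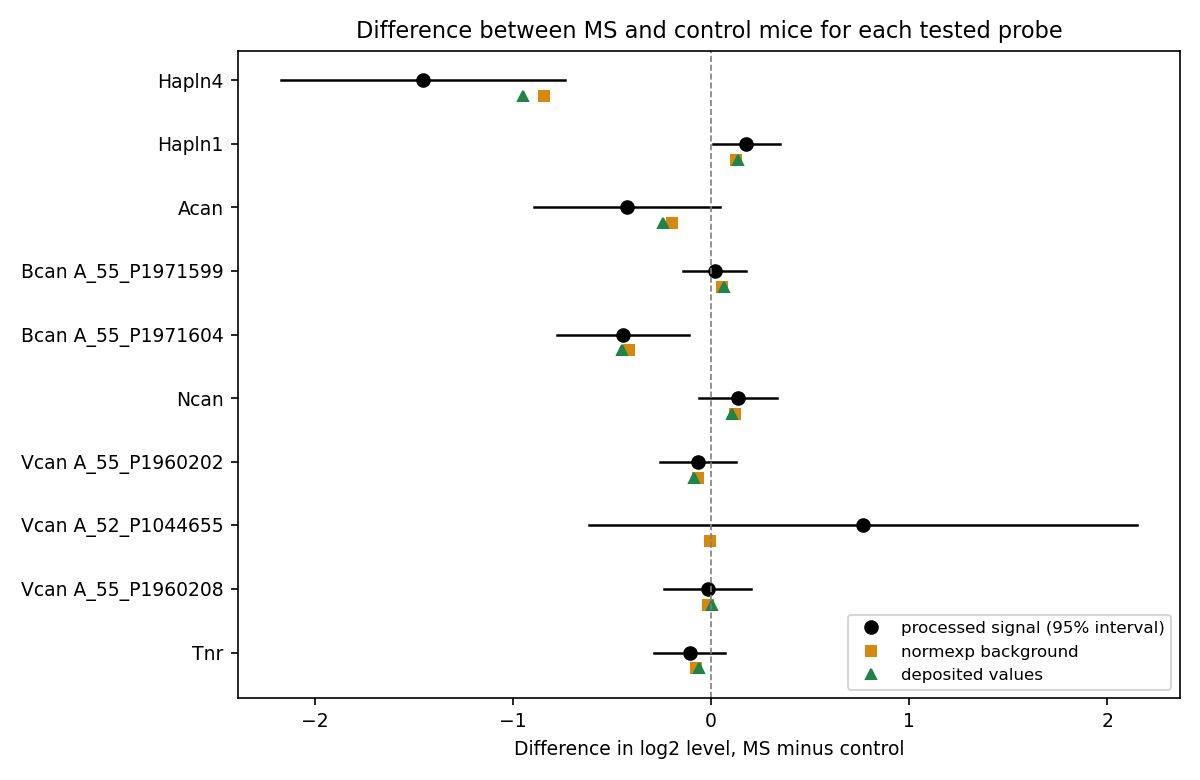
Difference in log2 level, MS minus control (x axis), for each of the 10 tested probes (rows), as a black point with its 95% interval from limma. Orange squares and green triangles give the same difference after normexp background correction and in the deposited log2 table (9 of the 10 probes); Hapln4 lies at -1.45, -0.84 and -0.95, and the interval of Hapln1 lies just above 0.

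Hapln1, or cartilage link protein, is the link protein through which nets are commonly disrupted in mouse studies. It showed the opposite direction at a small size: its levels were -0.92, -1.003, -0.91 and -0.91 in MS mice, against -1.14, -0.99, -1.08 and -1.26 in control mice. The MS mice were tightly grouped, and only control replicate 2 reached into their range. The difference was 0.18 (SE 0.08, 95% interval 0.008 to 0.35) with a limma unadjusted p of 0.0422 and an adjusted p of 0.337. Within each mouse, the Hapln4 level minus the Hapln1 level averaged -1.94 ± 0.49 in MS mice and -0.31 ± 0.58 in control mice, a difference of -1.63 (exact two-sided permutation p = 0.0286, n = 4 each). This is the smallest p that the 70 arrangements of 4 against 4 allow, and 0.0381 after adjustment over the 4 pairs of probes compared, which were picked after their values were seen. Leaving out MS replicate 1, 2 or 4 took this p to 0.0571. Hapln4 alone differed by -1.45 without overlap, so this comparison mostly restates the Hapln4 difference.

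Each link protein gene lies next to a lectican gene in the mouse genome, so the differences of each pair are given side by side. Ncan, the neighbour of Hapln4 on chromosome 8, encodes neurocan, a lectican made by neurons and astrocytes. Its levels were 1.34, 1.31, 1.39 and 1.56 in MS mice, against 1.26, 1.34, 1.35 and 1.11 in control mice. These ranges overlapped and the difference was 0.14 (SE 0.09, 95% interval -0.06 to 0.34, limma adjusted p = 0.520). The level of Hapln4 minus that of Ncan averaged -4.28 ± 0.47 in MS mice and -2.69 ± 0.61 in control mice, differing by -1.59 (exact two-sided permutation p = 0.0286, adjusted 0.0381 over the 4 pairs, n = 4 each). Leaving out control replicate 4 or any single MS mouse took this p to 0.0571. This pair too was picked after its values were seen, and Ncan itself differed by only 0.14. The comparison therefore mostly restates the Hapln4 difference and is not separate evidence. The other neighbour pairs were not tested in this way. In the other pairs the link protein and lectican differences were 0.18 for Hapln1 and -0.07 for Vcan on chromosome 13, -0.22 for Hapln2 and 0.02 for Bcan on chromosome 3, and -0.04 for Hapln3 and -0.42 for Acan on chromosome 7.

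Acan encodes aggrecan, the lectican held to be required for net formation. It was dim, with levels of -3.00, -3.72, -3.38 and -3.83 in MS mice, against -2.91, -3.14, -3.43 and -2.76 in control mice. The groups overlapped: MS replicate 1 lay above control replicates 2 and 3, and MS replicate 3 above control replicate 3. The difference was -0.42 (SE 0.21, 95% interval -0.89 to 0.05, limma adjusted p = 0.402), and its sign was not the same in every slide column, being 0.43 in the second. It was -0.20 with normexp correction and -0.24 in the deposited values, and neither passed the threshold.

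Bcan encodes brevican, an abundant lectican of the adult brain that exists in a secreted and a membrane-anchored form. Its 2 probes are annotated to different transcript variants, and their sequences are shown because they gave different results. Both lie on the reverse strand of chromosome 3 in mm9, the variant 1 probe A_55_P1971599 at chr3:87791457-87791516 and the variant 2 probe A_55_P1971604 at chr3:87796466-87796525. Capitals mark AATAAA, the usual polyadenylation signal.
Bcan variant 1, bases 30 to 59 of 60: aaaccaggtggaAATAAAgttgtctgaacc
Bcan variant 2, bases 31 to 60 of 60: tgactgtttcatggaaaacaaaccttggaa
The hexamer occurs on this strand in 3 of the 14 net gene probes (also Ncan and Has2) and in 10.06% of all array probes, and on the other strand in 0 of 14 and 3.74%. A match in a probe is a description and not evidence of a used site.

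The variant 1 probe, the brighter one, had levels of 6.18, 6.13, 6.29 and 6.13 in MS mice, against 6.18, 6.21, 6.19 and 6.07 in control mice. The groups overlapped, with a difference of 0.02 (SE 0.07, 95% interval -0.14 to 0.18, limma adjusted p = 0.937). The variant 2 probe had levels of 1.34, 1.49, 1.65 and 1.34 in MS mice, against 2.13, 1.71, 1.59 and 2.15 in control mice. MS replicate 3 and control replicate 3 crossed, and the difference was -0.44 (SE 0.15, 95% interval -0.78 to -0.11, limma unadjusted p = 0.0150, adjusted p = 0.241). Within each mouse, the variant 2 level minus the variant 1 level averaged -4.73 ± 0.10 in MS mice and -4.27 ± 0.34 in control mice. These within-mouse values did not overlap, and differed by -0.46 (exact two-sided permutation p = 0.0286, adjusted 0.0381 over the 4 pairs, n = 4 each). The p was 0.0857 to 0.143 on leaving out any 1 MS mouse. The gap between the groups was narrow, from -4.63 in MS replicate 2 to -4.60 in control replicate 3. The permutation p of 0.0286 is the smallest that the 70 arrangements allow. This pair too was picked after its values were seen, and the variant 1 probe itself differed by only 0.02. The comparison therefore mostly restates the variant 2 difference, which did not pass the adjusted threshold, and is not separate evidence.

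Vcan encodes versican, a lectican made by oligodendrocyte precursors and other cells and spliced into long and short forms. Its 3 probes lie on the reverse strand of chromosome 13 in mm9 and are shown because they read different stretches of the gene. A_55_P1960208 (chr13:89851810-89851869) and A_52_P1044655 (chr13:89850072-89850131) are annotated to transcript variant 5, and A_55_P1960202 (chr13:89795080-89795139) to transcript variant 1, far downstream. Each line gives bases 31 to 60 of 60.
Vcan A_55_P1960208: atagcagatttgatgcctactgctttaaac
Vcan A_52_P1044655: gttcatatgggtacataacatagcaaggtc
Vcan A_55_P1960202: atcactgtgttgacttactagggctttttt

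The upstream probe A_55_P1960208, which starts at base 1428 of its transcript, had levels of -1.002, -1.18, -1.38 and -1.01 in MS mice. Control mice had -1.12, -1.21, -1.05 and -1.12, a difference of -0.02 (SE 0.10, limma adjusted p = 0.967). The downstream probe A_55_P1960202 had levels of -1.18, -0.93, -0.91 and -1.10 in MS mice, against -0.97, -1.06, -0.93 and -0.90 in control mice, a difference of -0.07 (SE 0.08, limma adjusted p = 0.779). Groups overlapped for both probes, and the upstream level minus the downstream level within a mouse differed by 0.05 (exact two-sided permutation p = 0.886, n = 4 each). The probe A_52_P1044655 was well above background in only 2 MS and 2 control mice. Its levels of -5.20, -5.04, -4.94 and -4.68 in MS mice lay inside the control values of -6.77, -7.15, -4.58 and -4.43, and its difference of 0.77 (SE 0.61, limma adjusted p = 0.619) became -0.0039 under normexp correction.

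Tnr encodes tenascin-R, the tenascin of adult nets that binds the C-terminal domains of lecticans. It had levels of -0.47, -0.64, -0.73 and -0.58 in MS mice, against -0.48, -0.50, -0.60 and -0.41 in control mice. The groups overlapped, with a difference of -0.11 (SE 0.08, 95% interval -0.29 to 0.08, limma adjusted p = 0.594). Tnc encodes tenascin-C, which is abundant in the developing brain, and Has2 and Has3 encode 2 of the enzymes that make hyaluronan. One Tnc probe and the Has2 probe were well above background in control replicate 4 and in 0 of the 4 MS mice, and the other Tnc probe and the Has3 probe in none of the 8 mice. No fold is given for these 4 probes, and their transcripts were at or under what the arrays could measure.

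By the rule of the smallest root mean square difference over the 8 arrays, 3 genes among 14984 were closest to the pattern of Hapln4. They were Flt3, a cytokine receptor kinase (0.132), Kcnc2, the Kv3.2 potassium channel of fast-spiking neurons (0.136), and Sertm1, a small membrane protein (0.181). Their own differences were -1.34, -1.44 and -1.24, and each had its lowest MS level in replicate 2 and its highest in replicate 3. This likeness includes the difference between the groups and is a description only.

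**Figure D3:**
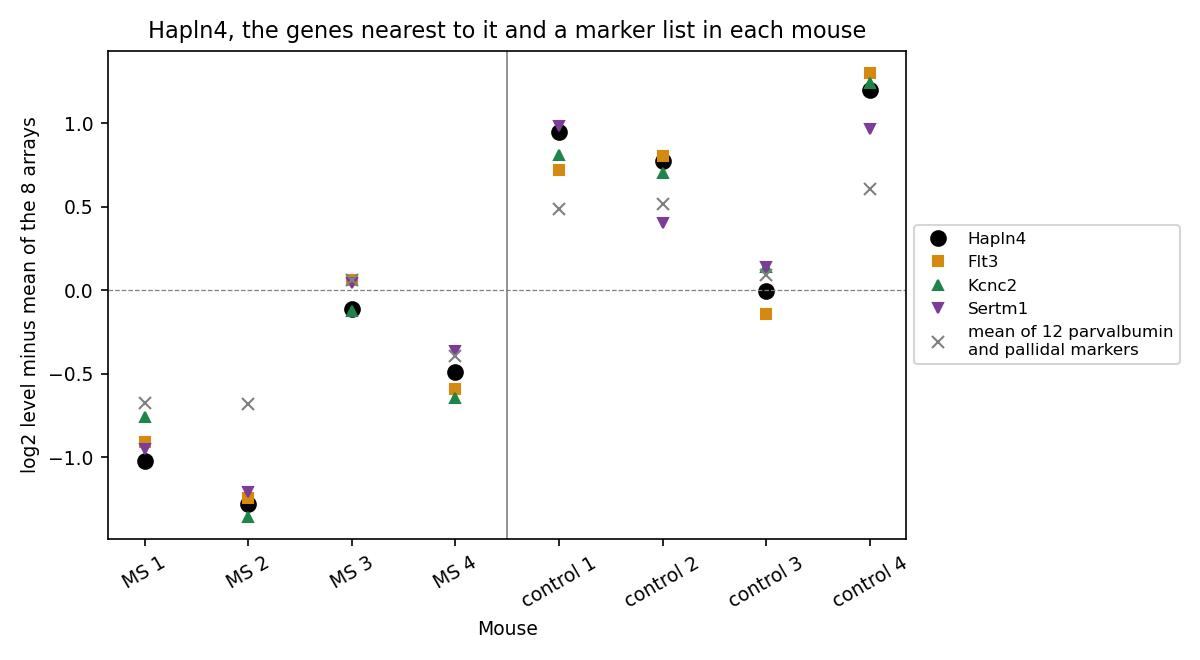
Log2 level minus the mean of the 8 arrays (y axis) in each mouse (x axis, MS left of the line, control right) for Hapln4, the 3 genes nearest to it and the mean of 12 parvalbumin and pallidal neuron markers. MS replicate 3 and control replicate 3 lie close together near 0 in all of them, and the other MS mice lie below the other control mice.

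Markers of neurons that carry nets, or that populate the neighbouring pallidum, had negative differences in the same mice as Hapln4. Of 12 genes in a list of parvalbumin and pallidal neuron markers, 10 were negative, the median difference being -0.85, and 7 were lower at an unadjusted p under 0.05, against 7.64% of all probes. None passed the adjusted threshold. Examples were Npas1, a transcription factor of pallidal neurons (-2.26, limma adjusted p = 0.0719), Lhx8, a factor of cholinergic and pallidal lineages (-0.92, limma adjusted p = 0.0719), and Pvalb, parvalbumin itself (-2.07, limma adjusted p = 0.146). Kcnc2 (-1.44), Vamp1, a synaptic vesicle protein (-1.24), Kcns3, a potassium channel subunit (-0.86), and the neurofilaments Nefh (-0.84) and Nefm (-0.54) were negative too. Syt2 (-0.08) and the vesicular GABA transporter Slc32a1 (-0.07) were near 0, and Lhx6 was at 0.13. Kcnc1, the Kv3.1 channel, differed by 0.04 on the highest of its 3 tested probes and by -0.85 and -0.57 on the others, which were examined after the first value was seen. Pvalb, Nefh, Lhx6 and Slc32a1 had 2 tested probes each, and only the highest is given here. The mean of the 12 centred levels was -0.67, -0.68, 0.06 and -0.40 in MS mice, against 0.48, 0.52, 0.09 and 0.60 in control mice. MS replicate 3 was the highest MS mouse and control replicate 3 the lowest control mouse for this mean, as for Hapln4. On the linear scale the summed level of the list, relative to the 75th percentile, ran over 195 to 221 in MS mice and 218 to 236 in control mice. Most of that sum was Slc32a1, a gene of GABA neurons in general, with 156 to 177 in MS mice and 165 to 182 in control mice, and the sum without it, computed after this was seen, ran over 38.3 to 43.9 in MS mice and 45.4 to 55.9 in control mice. Such sums weight the probes by their brightness. The part of these markers in the Hapln4 difference was not tested. Of this list, Npas1, Pvalb, Kcnc1, Kcnc2, Vamp1, Nefh, Lhx6 and Lhx8 are on the study's list of changed genes. The marker list was also chosen with earlier results of these data known. Neither the direction of these genes nor the count of 7 against 7.64% of all probes is therefore independent evidence.

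All 4 lists of glial markers had negative medians. Of 8 oligodendrocyte precursor genes, a source of versican, 7 had a negative difference (median -0.28) and 5 were lower without overlap, against 4.8% of all probes. Among the 5 was Cspg4 (-0.29), which is counted again below in the list of other net and matrix proteins. Of 12 astrocyte genes, 9 were negative (median -0.20), and 3 were lower without overlap. The largest differences were those of Agt, angiotensinogen, at -1.997 (limma adjusted p = 0.0654), and Slc6a11 (-1.01). The astrocyte markers Aqp4 (0.06), Slc1a2 (0.16) and Sox9 (0.05) were positive, so the list did not move as one. Oligodendrocyte genes were negative in 8 of 8 (median -0.17) and microglia genes in 7 of 8 (median -0.14), with 0 without overlap in either list. Striatal interneuron genes were negative in 8 of 10 (median -0.11). Vessel cell genes were mixed, with 6 of 10 positive (median 0.09), and 2 were higher and 0 lower without overlap. In that list, 2 were lower (background 7.64%) and 1 higher (background 6.47%) at an unadjusted p under 0.05. All 10 medium spiny neuron genes were positive (median 0.31), with 5 at an unadjusted p under 0.05 (6.47% of all probes were higher at this level) and 0 without overlap (3.9% of all probes were higher without overlap). The mean of their centred levels was -0.04, 0.22, 0.26 and 0.26 in MS mice, against -0.17, -0.09, 0.07 and -0.51 in control mice. Control replicate 4 thus lay far below the other control mice, and MS replicate 1 lay below control replicate 3. Agt is also on the study's list. None of these genes passed the adjusted threshold, and the part of these lists in the net gene differences was not tested. The lists were chosen with earlier results of these data known, so their counts beside the shares of all probes are not independent evidence. In the lists of cortical excitatory neurons and of choroid plexus, 3 of 6 genes each were tested, with medians of -0.13 and 0.17. Slc17a7 and Ttr, their defining markers, were not among them, while Cux2, Rorb and Tbr1 of the first list and Kl, Folr1 and Clic6 of the second were.

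Beyond the 10 genes, 5 lists of related matrix genes were set beside them. Among 15 tested genes for other net and matrix proteins, 4 were lower (background 7.64%) and 3 higher (background 6.47%) at an unadjusted p under 0.05, with a median of -0.04. Sparc, a secreted collagen-binding protein of glia and vessels, was at 6.40 ± 0.10 in MS mice and 7.28 ± 0.12 in control mice (SD, n = 4 each), a difference of -0.88 (SE 0.09, limma adjusted p = 0.0552). Its relative Sparcl1, or hevin, an astrocyte protein that promotes synapse formation, differed by -0.30 (limma adjusted p = 0.127), and neither gene overlapped between the groups. In this list, 3 genes were lower without overlap (background 4.8%) and 1 was higher without overlap (background 3.9%). The higher one was Has1, a hyaluronan synthase (0.27, limma adjusted p = 0.254).

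Genes for hyaluronan turnover and receptors had a median of -0.10 over 11 tested genes. At an unadjusted p under 0.05, 1 was lower (background 7.64%) and 0 higher (background 6.47%). That gene was Itih3, a heavy chain that becomes bound to hyaluronan, at 2.48 ± 0.13 in MS mice and 3.75 ± 0.28 in control mice (SD, n = 4 each), differing by -1.27 (SE 0.14, limma adjusted p = 0.0625). Of 13 tested matrix proteases and inhibitors, 2 were lower and 0 higher at this level, beside the same background shares, with a median of -0.08. They were Mmp15, a membrane-anchored metalloproteinase (-0.61, limma adjusted p = 0.0719), and Timp4, a metalloproteinase inhibitor (-0.60, limma adjusted p = 0.0918). Sparc, Itih3, Mmp15 and Timp4 are all on the study's list of changed genes, so they do not add independent evidence.

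Enzymes of chondroitin sulfate chain synthesis, which build the sugar chains of the lecticans, were the most even of the 5 lists. Of 19 tested genes, 10 were negative and 9 positive with a median of -0.01. At an unadjusted p under 0.05, 1 was lower (background 7.64%) and 1 higher (background 6.47%). These were Chst3, a 6-O-sulfotransferase (-0.30), and Chsy1, a chain-elongating synthase (0.17). Of 18 tested receptors and binding partners of nets, 4 were lower and 1 higher at this level, beside the same background shares, with a median of -0.07. The pair with the lowest p was Otx2, a homeoprotein that nets bind (-0.64, limma adjusted p = 0.206), and Plxna1, a co-receptor of semaphorin 3A (0.35, limma adjusted p = 0.215).

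**Figure D4:**
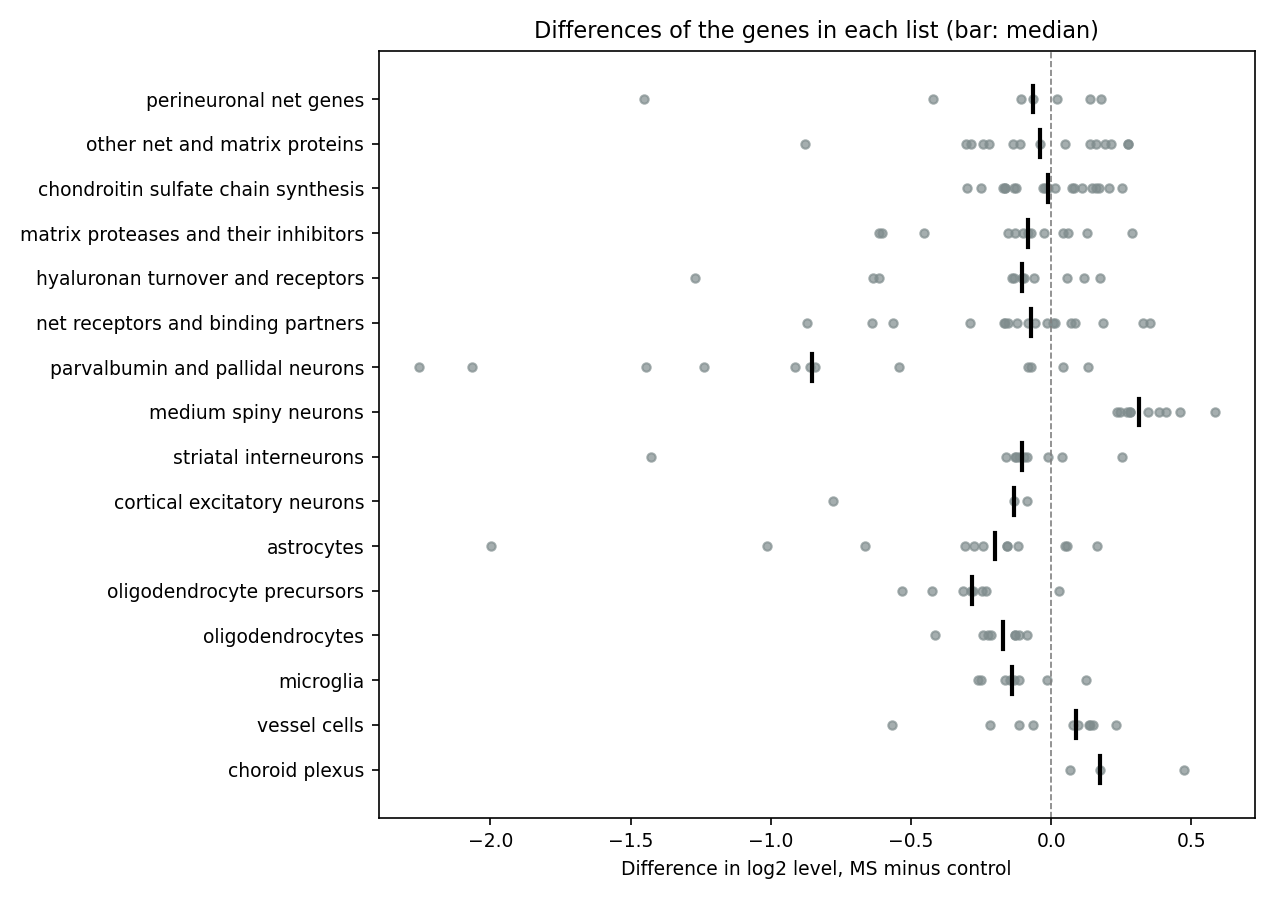
Difference in log2 level, MS minus control (x axis), of every tested gene (grey points) in each list (rows), with the median as a black bar. The net genes have a median of -0.07 with Hapln4 apart at -1.45, the parvalbumin and pallidal markers a median of -0.85, and the medium spiny neuron markers lie above 0.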

How the data were processed

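RNA of 8 NAc samples (4 MS, 4 control, grouped by the condition in the labels) was labelled with Cy3 from 40 ng and hybridised on 1-colour Agilent arrays that shared 1 slide and 1 scan. Per the file headers, the authors deposited intensity values per spot, background-subtracted by Feature Extraction 10.10.1.1, with mm9 coordinates and an array design other than the one named in the study's methods. They also deposited log2 values of 31261 probes; these followed the log2 mean signal without background subtraction (correlation across probes of at least 0.9997), column medians were 8.01, and how they were normalized and filtered is not given in the sources used here. Spots of a probe were averaged as log2, spots flagged as outliers were dropped, and each array's 75th percentile was subtracted. Tests used limma 3.58.1 in R 4.3.3 (lmFit, eBayes, Benjamini-Hochberg over 33111 probes, threshold 0.05) and were checked on simulated data. Differences between probes used exact permutation over mice. The number of arrays limits the precision.

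The members and gene lists were chosen with earlier results of these data known. Every probe of the 10 genes is given; a gene with several probes is summarised by its tested probe of highest mean level. From most other lists at most the 2 genes of lowest p, and genes on the study's list, are named. The parvalbumin and pallidal markers are all named, as are the tested cortical and choroid plexus genes and the untested Slc17a7 and Ttr. Hapln2 and Hapln3 are named as neighbours of lecticans, and Has1 for its lack of overlap. Aqp4, Slc1a2 and Sox9 are named as the positive astrocyte genes, and Cspg4 as a gene shared between lists. Sequences are the array's probes. Exon and UTR annotation of the probes was not used here, and gene order was read from RefSeq gene tables (GRCm38.p6). Alternatives changed the background, scaling, moderation, filter, slide position as a block, source of the values and each mouse.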

Additional observations from a re-analysis of the deposited data

Results flagged for a closer look

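In Hapln1, the MS replicate 2 level of -1.0033 stood apart from the other MS mice, whose nearest value was -0.9154 and farthest -0.9144, so that the gap took 0.989 of the group's range, past Dixon's critical value for 4 samples. The whole range of this group was small, and the other MS mice were nearly identical. It was 1 of 20 groups examined, and chance sets apart about 1 in 20.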

How the results depend on the processing

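No net gene probe passed the threshold in the fit reported, and the count stayed at 0 in 16 of 18 alternatives; it was 1 (Hapln4) with normexp background and with the deposited values. Over all probes, 1 passed. The count was 490 with normexp background, 85 with median scaling, 375 with the deposited values, 507 when moderation was robust and followed a mean-variance trend, 105 among probes well above background on every array, and 0 without a filter on dim probes (4854 at an unadjusted p under 0.05), with the slide column as a block (4076) or without control and MS replicate 1 together (3898). Leaving out single mice gave 0 to 37 calls over all probes, the highest without control replicate 3, and 0 net gene probes each time; the cause of these shifts was not tested. Hapln4 then differed by -1.70 to -1.27, with an limma adjusted p of 0.0821 to 0.250. Of 180 recomputed member differences, 168 kept their sign and side of the threshold, 2 became calls (Hapln4), and 10 changed sign, all near 0 or in dim probes or gene means. Bcan A_55_P1971599 was -0.0017 with quantile normalization and -0.018 to 0.038 without single mice. Vcan A_55_P1960208 was 0.024 with median scaling, 0.0071 in the deposited values and -0.062 to 0.063 without single mice. Vcan A_52_P1044655 was -0.0039 with normexp background. Averaging all tested probes of a gene gave -0.21 for Bcan and 0.23 for Vcan. The differences between probes of a mouse were recomputed with settings chosen after seeing the data: Hapln4 minus Hapln1 was -0.97 and Hapln4 minus Ncan -0.96 with normexp background. No paired analysis was possible because the labels carry no replicate numbers shared between the groups. Has2, Has3, Tnc and a Vcan probe were too dim for a firm difference.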
